A study of Homo sapiens with 9 samples.

Results

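The genes described are 9 that put peptides on the cell surface with major histocompatibility complex (MHC) class I molecules. They are the heavy chains HLA-B, HLA-C, HLA-E and HLA-F, the light chain B2M, the peptide transporter subunits TAP1 and TAP2, the proteasome subunit PSMB9 and the transcriptional regulator NLRC5. They were taken by name, and each matched 1 of the 41857 Ensembl gene IDs in the deposited files. In at least 3 libraries, 7 of the 9 reached a normalized value of 10, the floor for entering the test, and HLA-E and HLA-F did not. Poly(A) RNA came from MCF10A, a human breast epithelial line that does not form tumours and whose genotype is labelled WT. The 3 groups, each with 3 biological replicates, carried deltaNp63alpha, deltaNp63beta or the vector alone. Both isoforms are human forms of the transcription factor p63 that lack the longer N-terminal activation domain and differ in their C-terminal ends. Cultures of all 3 groups, vector included, were given 500 ng/mL doxycycline for 24 h, so doxycycline was the same on both sides of every comparison. The sources used here do not say which vector or promoter was used, or whether a line was 1 clone, and no culture without doxycycline was analysed here.

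Class I molecules display fragments of the proteins made inside a cell to cytotoxic T cells and natural killer cells. Proteasomes cut the proteins, the TAP1 and TAP2 transporter carries the peptides into the endoplasmic reticulum, and chaperones load them onto a heavy chain paired with B2M. Almost all nucleated cells make these genes at some level, interferons are known to raise them, and NLRC5 is a co-activator that acts at their promoters.

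The values were treated as normalized estimated counts per gene, though which processing step wrote them is not stated. The 9 libraries were close in total, with sums of 22483140 to 23213870 normalized units and 3.36% to 3.89% of the sum in mitochondrially encoded genes. Sums of normalized values do not show sequencing depth. TP63, which both constructs carry, had 4426, 6983 and 6961 normalized units in deltaNp63alpha libraries, 6719, 4183 and 4870 in deltaNp63beta libraries and 316, 332 and 259 in vector libraries, so the gene-level value fits the labels but does not separate the isoforms. The mammary epithelial markers were present in every library, with KRT5, a basal keratin, averaging 92598 normalized units with deltaNp63alpha, 146977 with deltaNp63beta and 55464 with vector. A fold change below is a log2 difference of group means of log2(value + 1), given ± its standard error, and called means a Benjamini-Hochberg adjusted p under 0.05 over all 15108 genes tested with limma. The comparisons of deltaNp63alpha and of deltaNp63beta with vector share their vector libraries. Nothing in the labels says how separate the cultures of a group were beyond the word biological, so the p-values measure the spread between these libraries.

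The heavy chains HLA-B and HLA-C and the light chain B2M were higher with deltaNp63beta than with either deltaNp63alpha or vector, by 1.41-fold to 1.99-fold in the ratio of means. NLRC5 was lower with deltaNp63alpha than with either of the others. Against vector, HLA-B, HLA-C, B2M and TAP1 were called higher with deltaNp63beta, 4 of the 7 genes tested, and 0 were called lower. By the same test 41.3% of all genes tested were called, 21.8% higher and 19.5% lower. With deltaNp63alpha 0 of the 7 were called higher than in vector and 1, NLRC5, was called lower, where 14.5% of all genes were called, 8.13% higher and 6.37% lower. At an unadjusted p under 0.05 it was 1 higher and 1 lower. Between the isoforms, 4 of 7 were called higher with deltaNp63beta than with deltaNp63alpha, HLA-B, HLA-C, B2M and NLRC5, and 0 lower, beside 32.9% of all genes, 17.4% higher and 15.5% lower. At an unadjusted p under 0.05 the count of lower genes was also 0 in the comparisons of deltaNp63beta with vector and with deltaNp63alpha. The median log2 fold change of the 7 genes was -0.10 for deltaNp63alpha against vector, 0.57 for deltaNp63beta against vector and 0.49 for deltaNp63beta against deltaNp63alpha. Over all genes tested these medians were -0.0059, -0.0048 and -0.00033. The libraries of the groups did not overlap for 4 of the 7 genes between deltaNp63alpha and vector (33.5% of all genes), 3 between deltaNp63beta and vector (50.6%) and 5 between deltaNp63beta and deltaNp63alpha (44.8%). Tested against a change of 1.5-fold instead of any change, HLA-B was called for deltaNp63beta against vector, HLA-B and NLRC5 for deltaNp63beta against deltaNp63alpha, and none for deltaNp63alpha against vector, where the adjusted p of NLRC5 was 0.16.

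**Figure D1:**
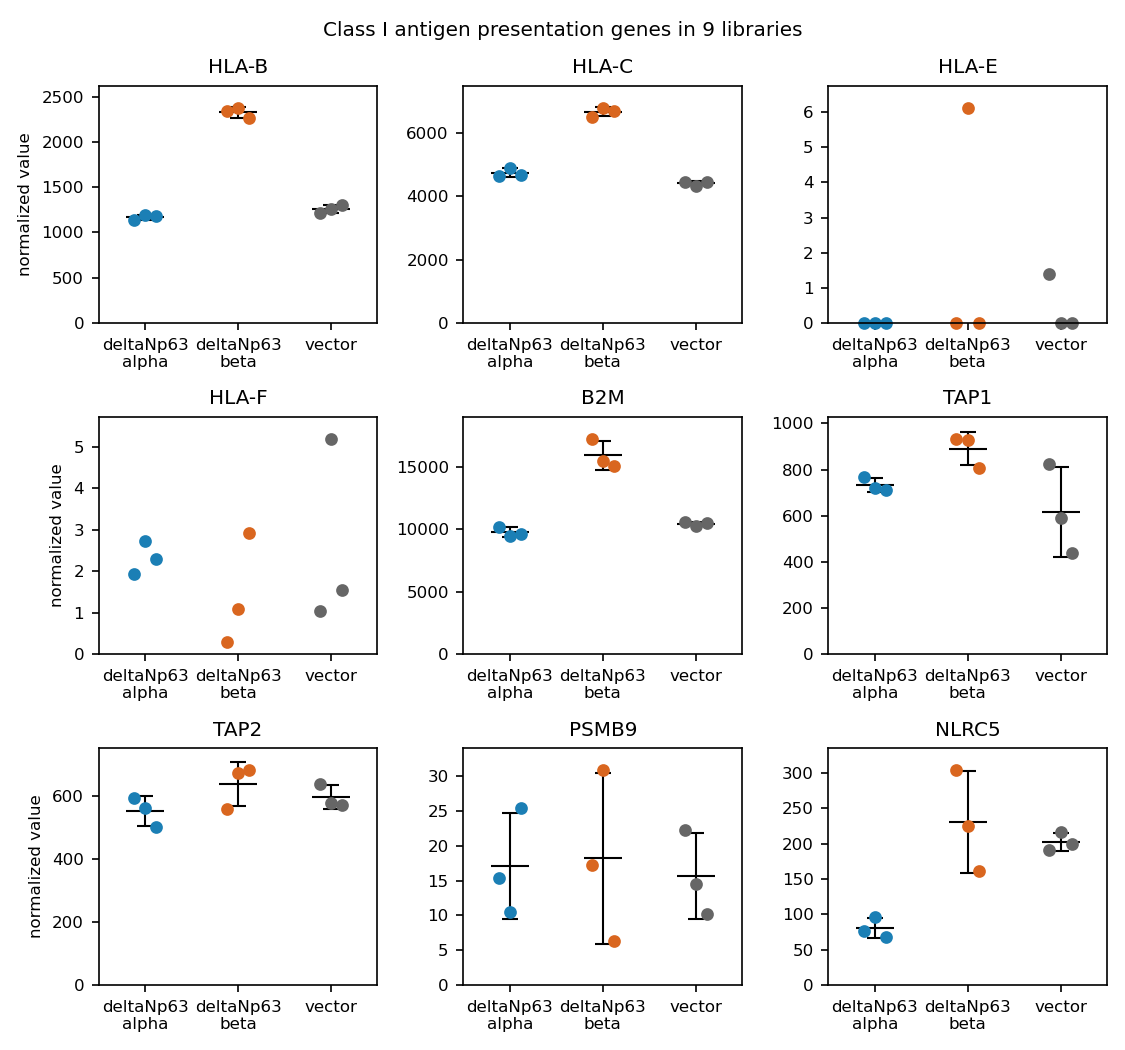
Normalized value (vertical axis, linear, from 0) of each of the 9 genes in deltaNp63alpha, deltaNp63beta and vector libraries, with 1 point per library and, except for HLA-E and HLA-F, a line at the mean with bars of 1 SD (n = 3). HLA-B, HLA-C and B2M stand higher in all 3 deltaNp63beta libraries than in the other 6, and NLRC5 lower in all 3 deltaNp63alpha libraries.

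**Figure D2:**
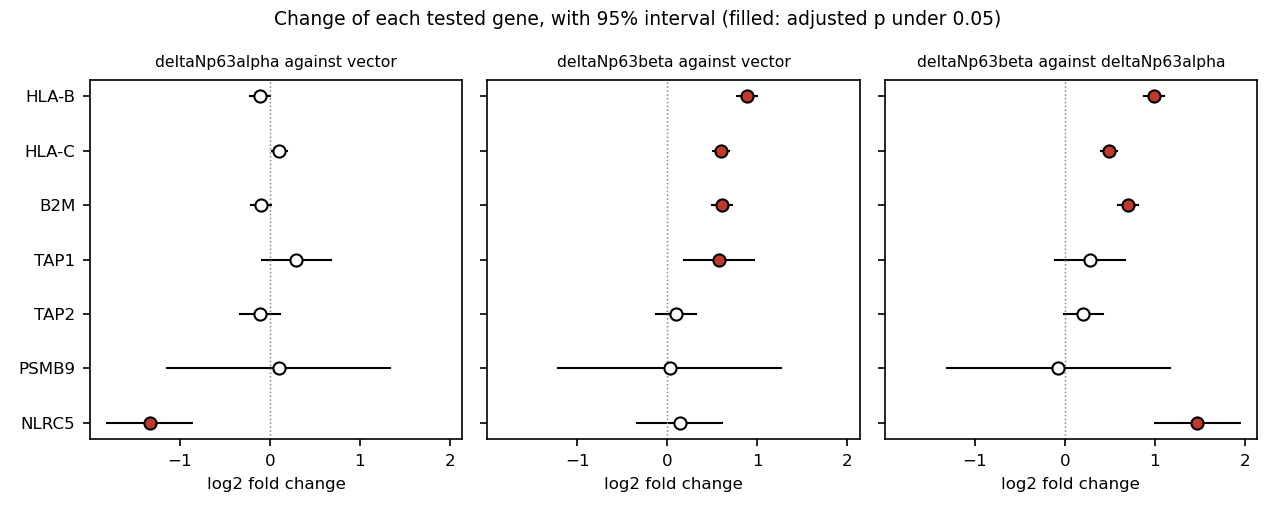
Log2 fold change (horizontal axis) of the 7 tested genes in each comparison, with its 95% interval; filled points have an adjusted p under 0.05. The intervals of HLA-B, HLA-C and B2M are short and that of PSMB9 runs from -1.21 to 1.27 for deltaNp63beta against vector.

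Of the heavy chains, HLA-B had 1139, 1189 and 1180 normalized units in deltaNp63alpha libraries, 2344, 2379 and 2259 in deltaNp63beta libraries and 1217, 1262 and 1302 in vector libraries. The 3 deltaNp63beta libraries were the highest and the 3 deltaNp63alpha libraries the lowest, with no overlap between any groups. HLA-B rose with deltaNp63beta by 0.88 ± 0.05 on the log2 scale against vector (adjusted p = 1.56e-07), a ratio of means of 1.85, and by 0.99 ± 0.05 against deltaNp63alpha (adjusted p = 1.42e-07). With deltaNp63alpha its log2 difference from vector was -0.11 ± 0.05 (adjusted p = 0.204). Among all genes tested, 6.06% had a larger log2 fold change than HLA-B for deltaNp63beta against vector.

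HLA-C, the other heavy chain with a high value, had 4651, 4908 and 4678 normalized units with deltaNp63alpha, 6519, 6803 and 6697 with deltaNp63beta and 4452, 4338 and 4461 with vector. Its groups did not overlap either, but here the vector libraries were the lowest. It rose with deltaNp63beta by 0.59 ± 0.04 against vector (adjusted p = 3.92e-07), a ratio of means of 1.51, and by 0.49 ± 0.04 against deltaNp63alpha (adjusted p = 3.56e-06). The log2 difference between deltaNp63alpha and vector was 0.10 ± 0.04 (adjusted p = 0.107). In bulk RNA, a change in the share of cells that make a transcript and a change in its amount per cell cannot be told apart, which holds for each gene here.

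The entries of the 2 heavy chains lie on the minus strand of chromosome 6 in GENCODE release 29 (GRCh38), HLA-C at chr6:31268749-31272130 and HLA-B at chr6:31269491-31357188. The long HLA-B entry covers part of HLA-C and also other entries, such as LINC02571. The RefSeq gene starts are well apart, at chr6:31357179 for HLA-B and chr6:31272092 for HLA-C. HLA-B and HLA-C are also close relatives in sequence, so reads that match both were divided between them by estimation and the split is uncertain. The 250 bases before the RefSeq gene start (GRCh38.p14), minus strand, are shown for HLA-B at chr6:31357180-31357429 and HLA-C at chr6:31272093-31272342. Both genes were called higher with deltaNp63beta, and their windows are close copies. A link between these 2 facts was not tested. Capitals mark the bases that are not identical in the alignment of the pair, 24 in each window.
HLA-B: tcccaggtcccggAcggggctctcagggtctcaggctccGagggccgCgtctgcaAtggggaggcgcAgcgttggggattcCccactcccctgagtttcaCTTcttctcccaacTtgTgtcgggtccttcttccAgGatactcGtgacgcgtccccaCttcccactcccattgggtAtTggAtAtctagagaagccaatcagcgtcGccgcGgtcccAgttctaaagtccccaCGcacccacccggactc
HLA-C: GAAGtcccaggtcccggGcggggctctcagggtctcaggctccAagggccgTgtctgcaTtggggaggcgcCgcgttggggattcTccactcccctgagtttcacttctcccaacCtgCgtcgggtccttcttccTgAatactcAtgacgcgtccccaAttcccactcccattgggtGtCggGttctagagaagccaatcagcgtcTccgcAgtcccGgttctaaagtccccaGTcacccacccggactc

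The windows of HLA-B and HLA-C were identical at 226 of 254 aligned positions, gaps included, which is 89.0%. For HLA-B and HLA-F, which was under 10 in all libraries, it was 202 of 253 (79.8%). For HLA-B and B2M, which was called higher with deltaNp63beta, it was 133 of 281 (47.3%). Both hold TGACGC, the core of a CRE-like element of class I promoters, on either strand, as 7.67% of 35116 RefSeq promoter windows of the same length do. Of the 9 genes, 7 had a promoter in the RefSeq table (not HLA-E or NLRC5), and TGACGC was also in that of TAP2. A match describes the letters of a window and is not evidence that a factor binds there.

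B2M, the light chain that pairs with class I heavy chains, was the most abundant of the genes. It had 10199, 9455 and 9641 normalized units in deltaNp63alpha libraries, 17242, 15425 and 15079 in deltaNp63beta libraries and 10533, 10271 and 10477 in vector libraries. The deltaNp63beta libraries were the highest, the first of them by the widest margin, and the deltaNp63alpha libraries lay just under the vector libraries. B2M rose with deltaNp63beta by 0.61 ± 0.05 against vector (adjusted p = 3.23e-06), a ratio of means of 1.53, and by 0.70 ± 0.05 against deltaNp63alpha (adjusted p = 1.95e-06). With deltaNp63alpha the log2 difference from vector was -0.10 ± 0.05 (adjusted p = 0.262). Of the genes called higher against vector it is the one outside chromosome 6, at chr15:44711487-44718877 on the plus strand, and it overlaps no other gene in GENCODE release 29.

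TAP1, a subunit of the peptide transporter, had 766, 721 and 711 normalized units in deltaNp63alpha libraries, 935, 928 and 807 in deltaNp63beta libraries and 824, 590 and 437 in vector libraries. The vector libraries were far apart, and their first lay above the lowest deltaNp63beta library. TAP1 was called higher with deltaNp63beta than with vector, by 0.57 ± 0.18 (adjusted p = 0.0224), a ratio of means of 1.44, and the call was lost when any of 4 libraries was left out. The adjusted p was 0.065 without deltaNp63beta replicate 1, 0.0651 without deltaNp63beta replicate 2, 0.0566 without vector replicate 2 and 0.0615 without vector replicate 3, and in the last case the log2 difference was 0.35. For deltaNp63alpha against vector the log2 difference was 0.29 ± 0.18 (adjusted p = 0.322), and it was 0.53 (adjusted p = 0.0213) without vector replicate 1. Between deltaNp63beta and deltaNp63alpha it was 0.28 ± 0.18 (adjusted p = 0.255), although the groups did not overlap, and the adjusted p was 0.0283 with the vector libraries left out of the fit.

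TAP2, the other subunit of the transporter, had 596, 562 and 502 normalized units with deltaNp63alpha, 559, 675 and 685 with deltaNp63beta and 640, 580 and 572 with vector. The groups overlapped in every pair, and none of the differences was called. The log2 difference was 0.09 ± 0.10 for deltaNp63beta against vector (adjusted p = 0.485), with a 95% interval of -0.13 to 0.31. It was -0.11 ± 0.10 for deltaNp63alpha against vector (adjusted p = 0.53) and 0.21 ± 0.10 for deltaNp63beta against deltaNp63alpha (adjusted p = 0.14). Without deltaNp63beta replicate 1 the last of these was called, at 0.30 (adjusted p = 0.0379).

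The promoter windows of B2M, at chr15:44711267-44711516 on the plus strand, and TAP1, at chr6:32853705-32853954 on the minus strand, are shown as those of the other called genes. Capitals mark GAAA, the half-site of interferon response elements, on either strand, a motif chosen, like TGACGC, after the sequences had been read. TAP1 has 2 starts in the RefSeq table, of which 1 was used.
B2M: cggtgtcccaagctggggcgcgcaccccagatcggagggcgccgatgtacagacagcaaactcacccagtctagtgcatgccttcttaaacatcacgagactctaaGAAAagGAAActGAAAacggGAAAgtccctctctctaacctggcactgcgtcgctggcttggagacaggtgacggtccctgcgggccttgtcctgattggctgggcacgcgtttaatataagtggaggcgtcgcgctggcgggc
TAP1: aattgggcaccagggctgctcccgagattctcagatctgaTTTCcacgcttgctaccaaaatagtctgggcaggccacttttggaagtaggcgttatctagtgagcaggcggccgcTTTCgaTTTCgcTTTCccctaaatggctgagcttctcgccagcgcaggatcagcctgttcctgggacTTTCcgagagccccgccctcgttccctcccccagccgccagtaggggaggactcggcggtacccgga

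The B2M window holds 4 copies of GAAA and the TAP1 window 5, numbers that 28.5% and 17.2% of all windows reach or exceed. HLA-B and HLA-C have 1 copy each, and 82.6% of all windows have at least that many. Windows of genes not called higher with deltaNp63beta against vector also hold GAAA. PSMB9 and HLA-F, the latter not tested, have 4 copies each, as B2M does, and TAP2 has 3, which 43.6% of windows reach or exceed. TAP1 is divergent from PSMB9, whose RefSeq start lies 488 bases away on the plus strand.

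PSMB9, the interferon-inducible subunit that replaces a catalytic subunit of the standard proteasome, was close to the floor of the test. It had 15.3, 10.6 and 25.4 normalized units in deltaNp63alpha libraries, 17.2, 31.0 and 6.40 in deltaNp63beta libraries and 22.3, 14.5 and 10.2 in vector libraries. The groups overlapped in every pair, and the spread within a group was as wide as that over all libraries. The log2 difference was 0.10 ± 0.56 for deltaNp63alpha against vector (adjusted p = 0.939), 0.03 ± 0.56 for deltaNp63beta against vector (adjusted p = 0.974) and -0.07 ± 0.56 for deltaNp63beta against deltaNp63alpha (adjusted p = 0.939). The 95% interval for deltaNp63beta against vector, -1.21 to 1.27, covers the changes found for HLA-B, HLA-C, B2M and TAP1, so a change of that size was not detectable here. Its entry, chr6:32844136-32859585, overlaps that of TAP1 (chr6:32845209-32853978) on the opposite strand and that of PSMB8, and the sources used here do not state strand.

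NLRC5 had 76.0, 96.6 and 68.5 normalized units in deltaNp63alpha libraries, 305, 225 and 161 in deltaNp63beta libraries and 192, 217 and 199 in vector libraries. All deltaNp63alpha libraries were below all others, and the deltaNp63beta libraries spread to both sides of the vector libraries. NLRC5 fell with deltaNp63alpha, with a log2 fold change of -1.34 ± 0.22 (adjusted p = 0.00159) and a ratio of means of 0.397 to vector, and 1.11% of all genes tested had a smaller log2 fold change. With deltaNp63beta the log2 difference from vector was 0.14 ± 0.22 (adjusted p = 0.646), with a 95% interval of -0.34 to 0.61. It was higher with deltaNp63beta than with deltaNp63alpha by 1.47 ± 0.22 (adjusted p = 0.000372). HLA-B, HLA-C, B2M, TAP1, TAP2 and PSMB9 were not called between deltaNp63alpha and vector, where NLRC5 fell. HLA-B, HLA-C, B2M and NLRC5 were each called higher with deltaNp63beta than with deltaNp63alpha. Against vector, though, NLRC5 was called with deltaNp63alpha alone, and HLA-B, HLA-C and B2M with deltaNp63beta alone. A link between NLRC5 and the other genes was not tested.

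HLA-E, whose product presents leader peptides of other class I molecules to natural killer cells, was listed at 0 in all deltaNp63alpha libraries, at 0, 6.13 and 0 in deltaNp63beta libraries and at 1.40, 0 and 0 in vector libraries. HLA-F, another nonclassical heavy chain, was listed at 1.93, 2.73 and 2.30 with deltaNp63alpha, at 0.300, 1.09 and 2.93 with deltaNp63beta and at 1.03, 5.20 and 1.54 with vector. Neither gene could be compared. These near-zero entries stand beside 5470 gene IDs of the files, of 41857, that have no symbol in the reference tables used here and hold 2.11% to 2.24% of each library's sum. Of those, 1202 reached a value of 10 in some library, and 254 of the 1202 had values identical to those of another such ID in all 9 libraries. Which genes they are, and their part in the low values of HLA-E and HLA-F, was not tested.

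Low and scattered values were frequent in the stretch of chromosome 6 that holds 7 of the 9 genes. Of 148 protein-coding genes between the start of HLA-F and the end of TAPBP, chr6:29722775-33314387, 71 (48.0%) were under 10 in all libraries, against 5389 of 19572 (27.5%) elsewhere. The median within-group SD of log2(value + 1) was 0.25 for the 70 protein-coding genes of the stretch that were tested, against 0.12 for those elsewhere. It was 0.88 for TAPBP, the chaperone tapasin, and 0.07 for B2M on chromosome 15. These 2 genes also differ in level, with group means of 58.7 to 71.4 for TAPBP and 9765 to 15916 for B2M. Genes of the stretch and elsewhere were not matched for level, and its part in the spread was not tested. HLA-B and HLA-C lie in the stretch, and their log2 fold changes had standard errors of 0.05 and 0.04, near the 0.05 of B2M.

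**Figure D3:**
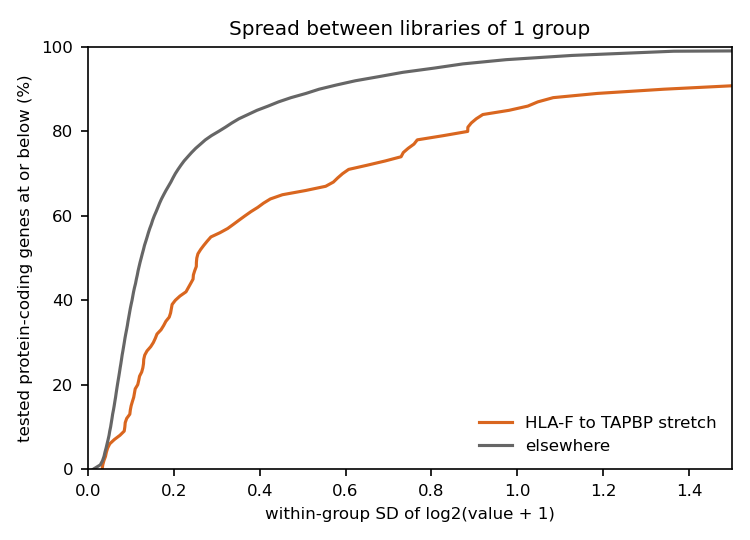
Share of tested protein-coding genes (vertical axis, %) whose within-group SD of log2(value + 1) is at or below the value on the horizontal axis, for the stretch of chromosome 6 from HLA-F to TAPBP and for genes elsewhere. The curve of the stretch lies to the right, with a median of 0.25 against 0.12.

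Per kilobase of the longest coding transcript, the order of levels in deltaNp63beta libraries was B2M at 9335 ± 681, HLA-C at 4294 ± 92.4, HLA-B at 1504 ± 39.8, TAP1 at 301 ± 24.3, TAP2 at 113 ± 12.3 and NLRC5 at 33.7 ± 10.6 normalized units per kb (SD, n = 3). Among the tested genes PSMB9 came last by mean there, between 8.08 and 39.1. The first 5 kept this order in every group, and the libraries of neighbours among them did not overlap within a group. NLRC5 and PSMB9 overlapped in each group. In deltaNp63alpha libraries PSMB9 averaged 21.6 ± 9.59 and NLRC5 11.8 ± 2.13 per kb, and in vector libraries PSMB9 averaged 19.8 ± 7.76 and NLRC5 29.7 ± 1.91.

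The ratio of the HLA-B to the HLA-C value was 0.245, 0.242 and 0.252 in deltaNp63alpha libraries, 0.360, 0.350 and 0.337 in deltaNp63beta libraries and 0.273, 0.291 and 0.292 in vector libraries. The deltaNp63beta libraries were the highest and the deltaNp63alpha libraries the lowest, without overlap. An exact two-sided permutation test of 3 libraries against 3 gave p = 0.1 for each pair of groups, the smallest it can give, and an adjusted p of 0.129 over the 9 ratio comparisons made. The ratio of HLA-C to B2M was 0.456, 0.519 and 0.485 in deltaNp63alpha libraries, 0.378, 0.441 and 0.444 in deltaNp63beta libraries and 0.423, 0.422 and 0.426 in vector libraries. All deltaNp63alpha libraries were above all others, with an exact permutation p of 0.1 against each of the other groups (adjusted p = 0.129), while deltaNp63beta and vector overlapped (exact permutation p = 1.0). The ratio of HLA-B to B2M was 0.112 to 0.126 with deltaNp63alpha, 0.136 to 0.154 with deltaNp63beta and 0.116 to 0.124 with vector. Here all deltaNp63beta libraries were above all others (exact permutation p = 0.1 against each group, adjusted p = 0.129), and deltaNp63alpha and vector overlapped (exact permutation p = 0.8).

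Among 8 other genes of peptide loading and assembly, 4 fell with deltaNp63alpha, and the called genes moved both ways with deltaNp63beta. TAPBP and its relative TAPBPL had log2 differences of 0.14 ± 0.56 (adjusted p = 0.914) and -0.01 ± 0.26 (adjusted p = 0.987) between deltaNp63alpha and vector. With deltaNp63alpha 0 were called higher than in vector (0 at an unadjusted p under 0.05) and 4 lower, HSPA5, CALR, PDIA3 and CANX, with a list median of -0.21. With deltaNp63beta 3 were called higher, ERAP1, PDIA3 and ERAP2, and 2 lower, HSPA5 and CALR, with a median of 0.07. Against deltaNp63alpha, deltaNp63beta had 4 called higher and 0 lower (0 at an unadjusted p under 0.05), with a median of 0.32. The shares of all genes tested called higher and lower in these comparisons were, in the same order, 8.13% and 6.37%, 21.8% and 19.5%, and 17.4% and 15.5%. PDIA3, the disulfide isomerase of the loading complex, was called in opposite directions. It had 12515, 13068 and 12159 normalized units with deltaNp63alpha, 16062, 17236 and 15975 with deltaNp63beta and 14916, 14303 and 14724 with vector, without overlap. Its log2 fold change was -0.22 ± 0.04 with deltaNp63alpha (adjusted p = 0.00441) and 0.16 ± 0.04 with deltaNp63beta (adjusted p = 0.00805). ERAP1, which trims peptides in the endoplasmic reticulum, rose with deltaNp63beta by 0.41 ± 0.08 (adjusted p = 0.00195), at 798 ± 47.2 against 598 ± 2.35 in vector (SD, n = 3). HSPA5, the general chaperone BiP, fell with both isoforms, by 0.45 with deltaNp63alpha and by 0.46 with deltaNp63beta on the log2 scale (adjusted p = 7.17e-05 and 1.85e-05). The calls of CANX with deltaNp63alpha, of CALR with deltaNp63beta and of ERAP2 were each lost when 1 library was left out: CANX without vector replicate 2 or the first or the third deltaNp63alpha library (adjusted p from 0.0589 to 0.0657), CALR without deltaNp63beta replicate 1 (0.0653) or vector replicate 1 (0.0885). ERAP2, at 183, 128 and 50.7 with deltaNp63beta and 52.0, 51.0 and 49.8 with vector, had a log2 fold change of 1.05 ± 0.38 (adjusted p = 0.0463), and of 0.66 (adjusted p = 0.173) without deltaNp63beta replicate 1; among the 9 libraries, its call held when deltaNp63beta replicate 3 was left out and was lost without any of the others.

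The immunoproteasome list held 4 genes, the catalytic subunits PSMB8 and PSMB10 and the activator subunits PSME1 and PSME2. With deltaNp63alpha 0 were called in either direction against vector, and 0 at an unadjusted p under 0.05. Over all genes tested, 8.13% were called higher and 6.37% lower there, so 0 of 4 does not set the list apart. With deltaNp63beta PSME1 and PSME2 rose against vector, and the list median was 0.28. In that comparison 21.8% of all genes tested were called higher and 19.5% lower. PSME2 had 879, 896 and 837 normalized units with deltaNp63beta and 669, 682 and 738 with vector, a log2 fold change of 0.32 ± 0.07 (adjusted p = 0.00252), and PSME1 changed by 0.24 ± 0.06 (adjusted p = 0.00984). PSMB8 had a log2 difference of 0.46 ± 0.19 from vector (adjusted p = 0.0687) and was called without deltaNp63beta replicate 1 (0.0428) or vector replicate 3 (0.0154). It was called higher with deltaNp63beta than with deltaNp63alpha, by 0.75 ± 0.19 (adjusted p = 0.00952). Of 4 genes of the standard proteasome and its other activator (PSMB5, PSMB6, PSMB7 and PSME3), PSMB7 alone was called, higher with deltaNp63beta by 0.22 ± 0.05 (adjusted p = 0.00221), and the list median was 0.04.

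Of 16 genes for the interferon gamma receptor pathway and the factors that bind class I promoters, 4 were called higher and 3 lower with deltaNp63beta than with vector, with a median of 0.12. These shares are near those of all genes tested, 21.8% higher and 19.5% lower, so the counts do not set the list apart. The 2 receptor chains rose with deltaNp63beta, IFNGR2 by 0.43 ± 0.05 (adjusted p = 4.71e-05) and IFNGR1 by 0.44 ± 0.06 (adjusted p = 7.94e-05). IRF2, an interferon regulatory factor, had 837, 752 and 775 normalized units with deltaNp63alpha, 1082, 1080 and 1150 with deltaNp63beta and 616, 771 and 648 with vector, and rose with deltaNp63beta by 0.71 ± 0.09 (adjusted p = 6.58e-05). JAK1, the kinase bound to the receptor, fell by 0.31 on the log2 scale (adjusted p = 0.000138). With deltaNp63alpha 2 were called higher, IFNGR2 by 0.39 ± 0.05 (adjusted p = 0.000379) and IRF9, and 1 lower, IRF1, with a median of -0.04. In that comparison 8.13% of all genes tested were called higher and 6.37% lower. IRF1, an activator of class I and of NLRC5, is given after its values were seen. It had 304, 387 and 355 normalized units with deltaNp63alpha, 502, 464 and 459 with deltaNp63beta and 499, 670 and 688 with vector. It fell with deltaNp63alpha, with a log2 fold change of -0.82 ± 0.13 (adjusted p = 0.0015). For deltaNp63beta the log2 fold change was -0.37 ± 0.13 (adjusted p = 0.0427), with groups that overlapped. This last call was lost without any of 6 libraries, deltaNp63alpha replicate 3, deltaNp63beta replicates 1, 2 and 3 and vector replicates 2 and 3 (adjusted p from 0.054 to 0.152). The call of IRF9 with deltaNp63alpha, 0.67 ± 0.19 (adjusted p = 0.037), was lost without any of the 3 deltaNp63alpha libraries or vector replicates 1 or 2, with only the 2 groups compared in the fit (adjusted p = 0.0601) and with no filter on low values (adjusted p = 0.0618). The call of RELA, lower with deltaNp63beta (-0.33 ± 0.10, adjusted p = 0.0235), was lost without deltaNp63beta replicate 1 or vector replicates 1 or 2.

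Interferon-stimulated genes outside the pathway were called higher with deltaNp63beta in 9 of 16 cases and lower in 1, IFI44L, with a median of 0.66. By the same test 21.8% of all genes were called higher and 19.5% lower. The antiviral RNA sensors OAS1 and OAS3 rose against vector by 1.16 ± 0.13 (adjusted p = 3.0e-05) and 0.72 ± 0.08 (adjusted p = 3.88e-05), and IFIT1 by 0.85 ± 0.15 (adjusted p = 0.00107). OAS1 had 203, 165 and 153 normalized units in deltaNp63alpha libraries, 404, 413 and 350.5 in deltaNp63beta libraries and 166, 174 and 180 in vector libraries. The deltaNp63beta libraries stood apart and those of the other groups overlapped. GBP2, an interferon-inducible GTPase, had 657, 573 and 434 with deltaNp63beta and 353, 272 and 327 with vector, and rose by 0.79 ± 0.15 (adjusted p = 0.00136). ISG15 and IFI6, which interferon also induces, had log2 differences of 0.02 ± 0.14 (adjusted p = 0.934) and 0.02 ± 0.14 (adjusted p = 0.94). With deltaNp63alpha 0 of 16 were called higher (0 at an unadjusted p under 0.05) and 2 lower, IFI44L with a log2 fold change of -1.19 ± 0.13 (adjusted p = 7.28e-05) and SAMD9L with -0.84 ± 0.19 (adjusted p = 0.0129). The list median was -0.10, and the call of SAMD9L was lost without vector replicate 1 (adjusted p = 0.0545). Against deltaNp63alpha, deltaNp63beta had 10 called higher and 0 lower (0 at an unadjusted p under 0.05), with a median of 0.67. Over all genes tested, 8.13% were called higher and 6.37% lower for deltaNp63alpha against vector, and 17.4% and 15.5% for deltaNp63beta against deltaNp63alpha. Some calls in these counts depended on single libraries. The call of IFI27 for deltaNp63beta against vector (adjusted p = 0.0446) held without vector replicate 3 and was lost without any other library. Between the isoforms, the call of SAMD9L (adjusted p = 0.0432) held only without deltaNp63beta replicate 1 or vector replicate 1. That of GBP1 (adjusted p = 0.0207) was lost without deltaNp63alpha replicates 1 or 2 or deltaNp63beta replicate 2. The summed level of the 16 genes was 3221 to 3692 in deltaNp63alpha libraries, 5333 to 5472 in deltaNp63beta libraries and 3564 to 3894 in vector libraries.

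**Figure D4:**
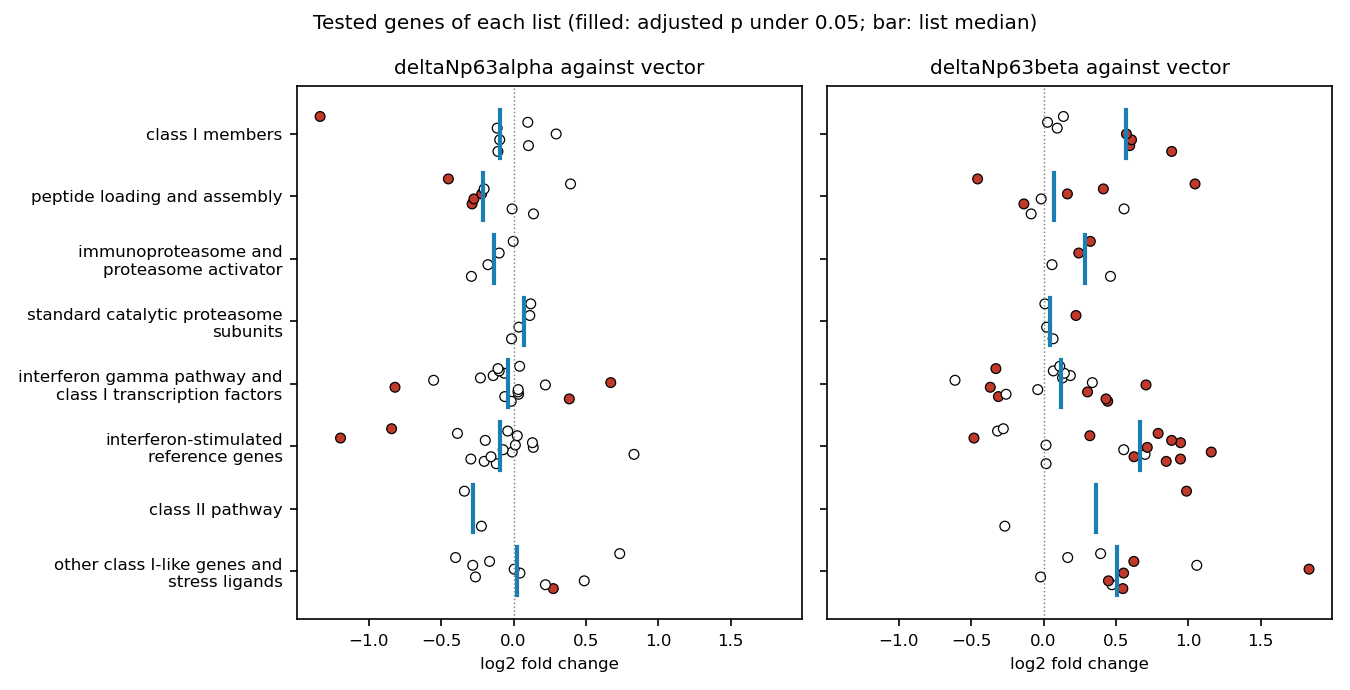
Log2 fold change against vector (horizontal axis) of each tested gene, by list, for deltaNp63alpha on the left and deltaNp63beta on the right; filled points have an adjusted p under 0.05 and the bar is the list median. The medians of the class I genes, the interferon-stimulated genes and the other class I-like genes are -0.10, -0.10 and 0.02 on the left and 0.57, 0.66 and 0.51 on the right.

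The class II pathway, which presents peptides from outside the cell, was near the floor. Of its 12 genes, 10 were under 10 in all 9 libraries, among them CD74, the invariant chain, and HLA-DRA, which was listed at 0 throughout. CIITA, the class II counterpart of NLRC5, and the protease CTSS passed the filter. CIITA had a log2 difference of -0.27 ± 0.43 with deltaNp63beta (adjusted p = 0.651). CTSS had 64.9, 38.3 and 38.8 normalized units with deltaNp63beta and 20.3, 27.4 and 20.9 with vector and rose by 0.99 ± 0.32 (adjusted p = 0.0284), but adjusted p was 0.0775 without vector replicate 1, 0.0748 without vector replicate 3 and 0.117 without deltaNp63beta replicate 1.

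Other class I-like genes include the stress ligands read by the natural killer cell receptor NKG2D. Of 10 tested (HLA-G, ULBP1 and FCGRT were under 10 in all libraries), 5 were called higher with deltaNp63beta than with vector and 0 lower (0 at an unadjusted p under 0.05), with a median of 0.51. The shares over all genes tested were 21.8% higher and 19.5% lower. RAET1G had 88.6, 117 and 108 normalized units in deltaNp63alpha libraries, 383, 373 and 357 in deltaNp63beta libraries and 101, 92.7 and 118 in vector libraries. The deltaNp63beta libraries stood apart from all others, and the log2 fold change was 1.83 ± 0.15 against vector (adjusted p = 2.02e-06). RAET1E and MICA, which are also NKG2D ligands, rose with deltaNp63beta by 0.55 ± 0.07 (adjusted p = 0.00012) and 0.55 ± 0.07 (adjusted p = 9.56e-05). MR1, which presents vitamin metabolites to mucosal T cells, rose by 0.62 ± 0.09 (adjusted p = 0.000311). ULBP2 was the fifth, by 0.45 ± 0.15 (adjusted p = 0.0362), a call lost without deltaNp63beta replicates 2 or 3 or vector replicate 1 (adjusted p from 0.101 to 0.131). With deltaNp63alpha MICA alone was called, by 0.27 ± 0.07 (adjusted p = 0.0241), and this call was lost without deltaNp63alpha replicates 2 or 3 or any vector library (adjusted p from 0.0578 to 0.0925). In that comparison 8.13% of all genes tested were called higher.

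Markers of other cell types moved in both directions beside these gene groups. Of the leukocyte markers, PTPRC and CD3E were under 10 in all libraries, and the summed level of the 8 markers was 1281 to 1642 in deltaNp63alpha libraries, 1242 to 1369 in deltaNp63beta libraries and 1871 to 2087 in vector libraries. CD14 and LAPTM5 were called higher with deltaNp63beta than with vector, by 2.77 ± 0.41 and 0.96 ± 0.16, and CD68, ITGB2 and CSF1R lower, with log2 fold changes of -0.86 ± 0.09, -1.87 ± 0.11 and -0.91 ± 0.24. With deltaNp63alpha CD68 (-0.40 ± 0.09) and ITGB2 (-0.93 ± 0.11) were called lower. Of the endothelial markers CDH5 was under 10 throughout, and PECAM1, TEK and KDR were called lower with deltaNp63beta (-1.15 ± 0.28, -1.88 ± 0.36 and -0.62 ± 0.16). PECAM1 was also called lower with deltaNp63alpha (-1.13 ± 0.28), a call lost without vector replicate 2 or the first or the third deltaNp63alpha library (adjusted p from 0.0654 to 0.0767). The summed level of the 5 endothelial markers was 166 to 172 with deltaNp63alpha, 110 to 140 with deltaNp63beta and 204 to 275 with vector.

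Of the 7 fibroblast markers, COL3A1 was under 10 in all libraries, and the sum was 7749 to 7911 with deltaNp63alpha, 12511 to 13576 with deltaNp63beta and 10597 to 10946 with vector. Most of this sum was FBLN1, which averaged 7224 with deltaNp63alpha, 12426 with deltaNp63beta and 9233 with vector. DCN was called lower with deltaNp63beta (-2.87 ± 0.11) and with deltaNp63alpha (-1.79 ± 0.11), while FBLN1 was called higher with deltaNp63beta (0.43 ± 0.04) and lower with deltaNp63alpha (-0.35 ± 0.04). MFAP5 (1.51 ± 0.26) and COL1A1 (0.52 ± 0.17) were called higher with deltaNp63beta, and the call of COL1A1 was lost without any of the 3 deltaNp63beta libraries or vector replicates 2 or 3 (adjusted p from 0.0529 to 0.0886). Of the 6 mammary epithelial markers, which include TP63, 5 were called higher with deltaNp63beta than with vector, among them EPCAM (3.04 ± 0.10), CDH1 (2.95 ± 0.11), KRT5 (1.41 ± 0.03) and KRT18 (0.33 ± 0.04). By the same test 21.8% of all genes were called higher. With deltaNp63alpha EPCAM (0.84 ± 0.10), CDH1 (1.25 ± 0.11) and KRT5 (0.74 ± 0.03) were called higher and KRT8 lower (-0.30 ± 0.05). The part of these marker changes in the results for the class I genes and the other lists was not tested.

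The genes outside the list whose log2 values followed the mean standardized value of the 7 tested class I genes most closely over the 9 libraries were NPC2 (Pearson r = 0.98), NMI (0.98), ADPRM (0.97), NALCN (0.97) and H2AJ (0.97). This describes 9 libraries that fall into 3 groups and was not tested. NMI, a protein induced by interferon, averaged 324 normalized units with deltaNp63alpha, 546 with deltaNp63beta and 361 with vector. NPC2, a lysosomal cholesterol carrier, averaged 2949 with deltaNp63alpha, 3426 with deltaNp63beta and 3029 with vector. Against the same mean, the class I genes themselves had r of 0.93 for B2M and HLA-B, 0.89 for HLA-C, 0.73 for TAP1, 0.64 for NLRC5, 0.63 for TAP2 and 0.25 for PSMB9, each being part of that mean.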

How the data were processed

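RNA was measured in 9 MCF10A libraries, 3 per group, grouped by their titles. The deposited values are a normalized signal per gene that the authors made, per the submitters' processing notes, with kallisto 0.46.2 on GRCh38 and DESeq2 (version not given); which step wrote the values is not stated. They are not whole read counts: 60.9% to 63.7% of low values were whole multiples of a step within 0.1 step. No count test was therefore run and no counting interval was computed. The library sums are of values treated as normalized, so they do not show sequencing depth, which was not measured here. Symbols came from the reference name table and positions from GENCODE release 29. Values plus a pseudocount of 1 were log2-transformed, so changes of low genes are understated. Genes with at least 10 in at least 3 libraries were tested with limma 3.58.1 in R 4.3.3 (trend and robust), all 9 libraries in 1 fit with 1 coefficient per group and no covariate, with Benjamini-Hochberg adjustment over 15108 genes. The fit was also run on simulated data as a check of the code, which is not evidence for any call here. Tables were read with pandas 2.3.3 and numpy 2.4.6 in Python 3.11.15, and plots drawn with matplotlib 3.10.9.

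The class I genes and the gene lists were chosen with earlier results of these data known. The text names all 9 genes, up to 4 genes of each other list by smallest adjusted p in deltaNp63beta against vector, list genes called in opposite directions with the isoforms, every marker called against vector, TP63 and the 5 genes most like the class I mean. Others, named to spell out small counts or as IRF1, ISG15 and IFI6 are, were chosen after their values were seen. Some genes of the lists are counted but not reported here by name. Replicate numbers did not pair the libraries. Alternatives were median-of-ratios factors, equal totals, no filter, a filter of 50, pseudocounts of 0.1 and 10, only the 2 groups compared, a replicate block, values summed over gene IDs of 1 symbol, a test against a 1.5-fold change, and leaving out each library.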

Additional observations from a re-analysis of the deposited data

How the results depend on the processing

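The 1.5-fold test called 134 and 47 genes higher and lower for deltaNp63alpha against vector (1229 and 963 without it), 516 and 387 for deltaNp63beta against vector (3293 and 2953), and 231 and 187 for deltaNp63beta against deltaNp63alpha (2625 and 2340). Under it 0 of the 7 class I genes was lower with deltaNp63alpha, 1 higher with deltaNp63beta than with vector and 2 higher with deltaNp63beta than with deltaNp63alpha, since it asks for a larger change. With 1 library left out, 640 to 1022 genes were lower with deltaNp63alpha than with vector (641 without vector replicate 2, 640 without vector replicate 3), and 0 to 1 class I gene was higher (TAP1, without vector replicate 1). Leaving out 1 library also changed the sign of the log2 difference of PSMB9: it ran from -0.22 to 0.38 for deltaNp63alpha against vector, from -0.46 to 0.60 for deltaNp63beta against vector and from -0.56 to 0.50 for deltaNp63beta against deltaNp63alpha, and it was -0.0054 for deltaNp63beta against vector with equal totals. A filter of 50 left PSMB9 untested. That of NLRC5 for deltaNp63beta against vector ran from -0.090 to 0.37, negative without deltaNp63beta replicate 1; the cause was not tested. Replicate numbers show no pairing: the correlation of residuals was -0.12 to 0.08 between libraries of 1 number and -0.14 to 0.12 otherwise, and 2 of 9 libraries were closest to their own number. With a replicate block, 1053 and 780, 3121 and 2818, and 2435 and 2148 genes were called higher and lower, and the class I counts were 1 lower, 4 higher and 4 higher as without it. In the other lists the block ended the calls of IRF9 for deltaNp63alpha against vector (adjusted p = 0.0651), ERAP2 (0.0541) and IFI27 (0.0672) for deltaNp63beta against vector, and SAMD9L (0.0755) and KDR (0.0649) for deltaNp63beta against deltaNp63alpha. No filter on low values ended those of IRF9 (0.0618) and MICA (0.0542) for deltaNp63alpha, and of ERAP2 (0.0573), IRF1 (0.0525), IFI27 (0.066) and ULBP2 (0.0699) for deltaNp63beta, against vector, and of SAMD9L (0.0831), KDR (0.0792) and GBP1 (0.0502) between deltaNp63beta and deltaNp63alpha. Comparing only the 2 groups ended those of IRF9 (0.0601) for deltaNp63alpha and of ERAP2 (0.0705), IFI27 (0.0679) and ULBP2 (0.0678) for deltaNp63beta, against vector, and of SAMD9L (0.0681) and TEK (0.0591) between deltaNp63beta and deltaNp63alpha. Equal totals ended those of ERAP2 (0.0537) and IFI27 (0.0523) for deltaNp63beta against vector. Low values, near those of PSMB9, limit what can be detected. The calls of HLA-B, HLA-C and B2M in both comparisons of deltaNp63beta, and of NLRC5 between deltaNp63alpha and vector, held under leaving out each library, the scalings, filters, pseudocounts and the block.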
